A study of Mus musculus with 6 samples.

Results

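The 9 genes described here encode the enzymes that place and remove DNA methylation in mouse cells, and they were taken by name from a table of 23999 gene symbols. They are the DNA methyltransferase genes Dnmt1, Dnmt3a and Dnmt3b, the cofactor genes Dnmt3l and Uhrf1, the dioxygenase genes Tet1, Tet2 and Tet3, and the glycosylase gene Tdg. All 9 were found and all 9 passed the filter on low counts, as did 14458 of the 23999 genes. Polyadenylated RNA was sequenced from mouse embryonic stem cells, the cultured pluripotent cells of the early embryo. Both groups carried a floxed element named -5 and exogenous mNanogV5, a tagged mouse Nanog, and differed in 6 days of ethanol vehicle (n = 3) or of tamoxifen, labelled 4OHT (n = 3). 4OHT is the ligand commonly used to switch on Cre recombinase fused to an oestrogen receptor, and the series title names a Nanog enhancer. The labels do not say which Cre the cells carried or whether the 3 samples of a group were separate cultures or clones, so p-values measure the spread between these samples, which may be technical. No 4OHT sample without the floxed element was analysed here, so an effect of the ligand and one of the deletion cannot be told apart.

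DNA methylation in mammals is copied and rewritten by different enzymes. DNMT1, guided to newly replicated DNA by UHRF1, copies methyl marks onto the daughter strand, while DNMT3A and DNMT3B methylate new sites and DNMT3L, which has no catalytic activity of its own, stimulates them. TET enzymes oxidize methylcytosine, and TDG excises the oxidized bases so that base excision repair can put back an unmodified cytosine. Mouse embryonic stem cells are known for expressing Tet1 and Tet2 with little Tet3, and for raising Dnmt3a and Dnmt3b as they leave the naive state.

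The sequences before the transcription starts of the 3 genes whose RNA passed the test, Dnmt3b, Dnmt3a and Tet2, are shown so that their CpG content can be seen. They come from RefSeq on the GRCm38.p6 assembly, which is not the mm9 build named for the deposited counts, and all 9 genes were matched there by symbol. Each window holds up to 250 bases that end just before the start or before the first annotated exon base. Capitals mark CG dinucleotides, the sites that these enzymes modify. The Dnmt3b window is chr2:153649199-153649448 (plus strand). Of the Dnmt3a starts in the table, an upstream one is shown at chr12:3806730-3806979 and an internal one, inside the longer gene, at chr12:3891494-3891727 (both plus strand). The Tet2 window is chr3:133544391-133544640 (minus strand).
Dnmt3b: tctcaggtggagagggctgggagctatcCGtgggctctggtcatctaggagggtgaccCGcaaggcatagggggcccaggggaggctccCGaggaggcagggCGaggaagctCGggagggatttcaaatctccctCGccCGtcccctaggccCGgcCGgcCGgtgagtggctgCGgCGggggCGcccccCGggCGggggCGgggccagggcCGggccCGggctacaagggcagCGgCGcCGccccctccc
Dnmt3a, upstream start: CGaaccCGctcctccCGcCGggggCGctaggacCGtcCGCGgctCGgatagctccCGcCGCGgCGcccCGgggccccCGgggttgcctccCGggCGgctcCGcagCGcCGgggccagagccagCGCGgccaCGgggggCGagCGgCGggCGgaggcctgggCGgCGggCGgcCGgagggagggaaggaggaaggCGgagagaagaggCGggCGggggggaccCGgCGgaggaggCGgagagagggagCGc
Dnmt3a, internal start: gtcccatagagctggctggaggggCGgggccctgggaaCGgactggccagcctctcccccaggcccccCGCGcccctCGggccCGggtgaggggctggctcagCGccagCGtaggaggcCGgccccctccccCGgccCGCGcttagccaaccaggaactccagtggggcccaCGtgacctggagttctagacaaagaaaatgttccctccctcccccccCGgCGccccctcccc
Tet2: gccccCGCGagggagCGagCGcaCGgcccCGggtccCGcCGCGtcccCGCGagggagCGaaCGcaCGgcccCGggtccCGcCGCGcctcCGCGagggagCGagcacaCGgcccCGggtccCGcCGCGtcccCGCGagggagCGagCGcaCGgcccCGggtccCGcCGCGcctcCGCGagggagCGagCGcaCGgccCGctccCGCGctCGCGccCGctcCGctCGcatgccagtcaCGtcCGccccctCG

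The Tet2 window holds 51 CG dinucleotides, which puts it at percentile 99.9 of the 32851 promoter windows of 250 bases in the table, whose median is 6. The Dnmt3b window holds 21, the upstream Dnmt3a window 38 and the internal one 15. The GC box GGGCGG, searched like the other motifs on both strands, was found in each of these 4 windows and in 32.7% of all windows. The E2F-type motif TTTCCCGC and the octamer ATGCAAAT, held by 0.895% and 1.6% of all windows, were found in none of the 4. The E-box CACGTG, present in 6.02% of all windows, was found in the internal Dnmt3a window. Read counts per gene do not tell which Dnmt3a start was used.

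The libraries held 20030423 to 52250671 counts in vehicle and 31307423 and 55194644 in 4OHT replicates 3 and 1, but only 515388 in 4OHT replicate 2, which stands apart. One read there is worth 1.91 CPM (counts per 1000000 counts of the library, after TMM scaling), so Tet3 rested on 4 reads and Tdg on 12 in that library. Nanog, the gene the series is about, stood at 631, 660 and 641 CPM in vehicle and 177, 172 and 194 CPM in 4OHT (log2 fold change -1.81, edgeR adjusted p = 1.6e-13). Transcripts of mNanogV5 may be counted under that symbol too. The stem cell markers were high in both groups, with 10 markers summing to 6770 to 6850 CPM in vehicle and 6710 to 7060 CPM in 4OHT libraries. The sums hide opposite changes of single markers. At an adjusted p under 0.05, edgeR called 2 of the 10 higher and 2 lower in 4OHT, and 6 did not pass. Sall4 (log2 fold change 0.54) and Sox2 (0.18) were higher, and Fgf4 (-0.3) and Pou5f1 (-0.21) lower. Those not passing were Tfcp2l1 (0.15), Esrrb (0.03), Klf4 (0.02), Dppa5a (0), Zfp42 (-0.02) and Utf1 (-0.19). DESeq2 called 1 higher and 2 lower. Of 10 fibroblast markers 6 were too low to test, and Postn had no read in any library. A lower level in such bulk RNA can come from fewer cells of a type or from less RNA per cell, which cannot be told apart.

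Of the 9 genes, Dnmt3a and Dnmt3b rose, Tet2 fell and the other 6 did not pass the test. By edgeR's quasi-likelihood test at an adjusted p under 0.05, 22.4% of all tested genes were called, 11.9% higher in 4OHT and 10.5% lower. The share called among the 9 is thus near that of all genes, and the changes are described gene by gene. The median log2 fold change was 0.07 over the 9 genes and 0 over all tested genes. The values of the groups did not overlap for 4 of the 9 genes (Dnmt3a, Dnmt3b, Uhrf1 and Tet2), against 31.3% of all tested genes.

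**Figure D1:**
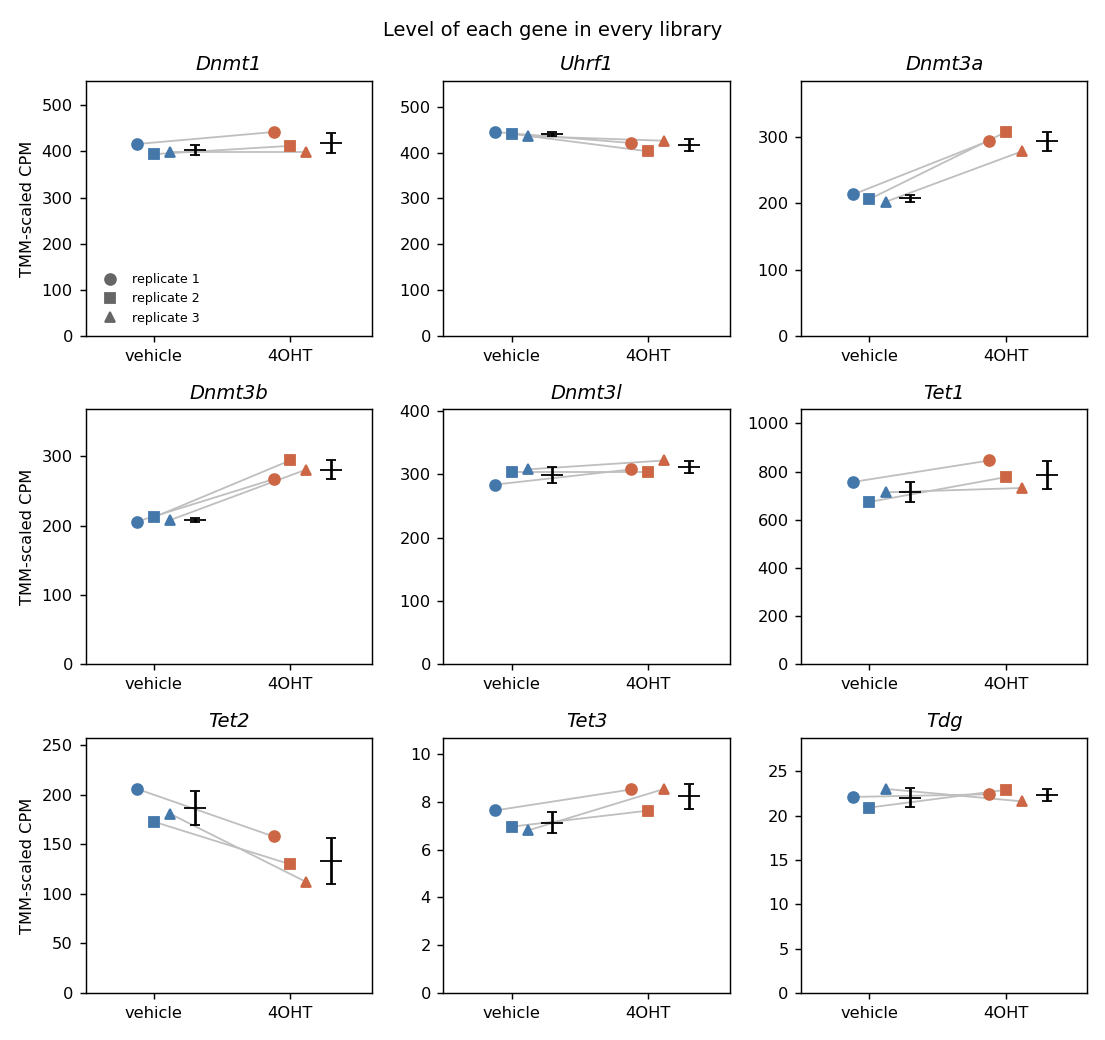
Level of each gene in TMM-scaled CPM (vertical axis, from 0) in the 3 vehicle (blue) and 3 4OHT (orange) libraries, with symbols for the replicate number, grey lines joining equal numbers, and black marks for mean and SD. Dnmt3a and Dnmt3b rise and Tet2 falls along every line, while Dnmt1, Uhrf1, Dnmt3l and Tdg stay close to their vehicle levels.

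The de novo methyltransferase genes rose, Dnmt3a by 1.39-fold and Dnmt3b by 1.33-fold. Dnmt3a stood at 213, 206 and 202 CPM in vehicle and at 294, 307 and 278 CPM in 4OHT. The lowest 4OHT library lay above the highest vehicle library by a margin wider than the spread inside either group. Its mean went from 207 ± 5.63 to 293 ± 14.9 CPM (SD, n = 3 each; log2 fold change 0.48, SE 0.06, edgeR adjusted p = 3.73e-06). In same-numbered libraries the 4OHT level was 138%, 149% and 138% of the vehicle level. Among all tested genes 13.5% changed by more than Dnmt3a in either direction, so its rise was moderate for these samples.

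Dnmt3b, which with Dnmt3a sets up methylation in the early embryo, stood at 206, 212 and 208 CPM in vehicle and 267, 294 and 281 CPM in 4OHT. Again no 4OHT library reached down to a vehicle value. The log2 fold change was 0.41 (SE 0.06, edgeR adjusted p = 2.38e-05), with a 95% interval of 0.29 to 0.53 that overlaps the 0.36 to 0.6 of Dnmt3a. Dnmt3c, a neighbouring duplicate of Dnmt3b, matches 33.2% of the Dnmt3b transcript at 93.9% identity, so some reads could be shared. Both rises passed in all 13 other fits made, with log2 fold changes of 0.44 to 0.52 for Dnmt3a and 0.37 to 0.44 for Dnmt3b.

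Dnmt3l, the cofactor of these enzymes, did not pass the test. Its level was 284, 304 and 308 CPM in vehicle and 308, 304 and 322 CPM in 4OHT, and the groups overlapped. The log2 fold change was 0.07 with a 95% interval of -0.05 to 0.19 (edgeR adjusted p = 0.442), which lies below the intervals of Dnmt3a and Dnmt3b.

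Ratios of 2 genes inside a library need no scaling between libraries, and they set Dnmt3l against Dnmt3b directly. The log2 ratio of Dnmt3l to Dnmt3b counts was 0.46, 0.52 and 0.57 in vehicle and 0.21, 0.05 and 0.2 in 4OHT, so the groups did not overlap. The difference of the means was -0.37 (exact two-sided permutation p = 0.1, adjusted p = 0.167 over 5 ratios). With 3 samples against 3 the exact test cannot give less than 0.1. The Dnmt3a to Dnmt3b ratio overlapped between groups, with means of -0.01 ± 0.05 and 0.06 ± 0.08 (SD, n = 3 each; exact permutation p = 0.2, adjusted p = 0.25).

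**Figure D2:**
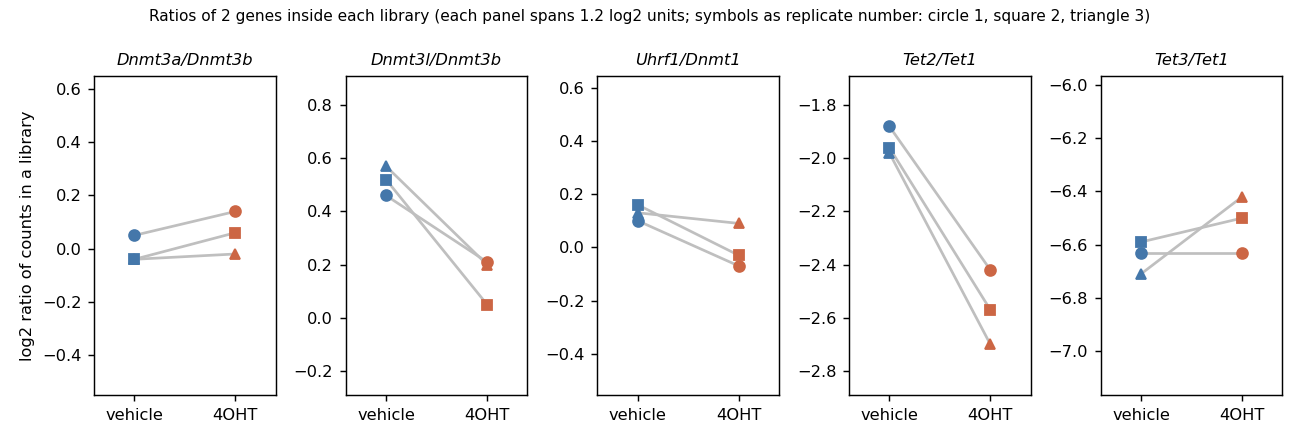
Log2 ratio of the counts of 2 genes inside each library (vertical axis, each panel spanning the same height) for vehicle (blue) and 4OHT (orange), with lines joining equal replicate numbers. Dnmt3l/Dnmt3b and Tet2/Tet1 are lower in each 4OHT library than in any vehicle library. Uhrf1/Dnmt1 is nearly equal in vehicle replicate 1 (0.1) and 4OHT replicate 3 (0.09), and the other panels overlap.

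Neither maintenance gene passed the test. Dnmt1, the enzyme that copies methylation after replication, stood at 416, 394 and 399 CPM in vehicle and 442, 412 and 399 CPM in 4OHT, with overlap. Its log2 fold change was 0.06 with a 95% interval of -0.07 to 0.18 (edgeR adjusted p = 0.556). Uhrf1, which recruits DNMT1 to hemimethylated sites, stood at 445, 441 and 436 CPM against 421, 403 and 426 CPM.

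All Uhrf1 values in 4OHT lay below those in vehicle, but by little. The 403 CPM of 4OHT replicate 2 rests on 211 reads, which allow 350 to 461 CPM (exact 95% Poisson interval, counting error only). That interval holds every vehicle value. The log2 fold change was -0.07 with a 95% interval of -0.19 to 0.05 (edgeR adjusted p = 0.416). The pseudogene Gm5648 matches 44.3% of the Uhrf1 transcript at 98.3% identity, so reads could be shared. The log2 ratio of Uhrf1 to Dnmt1 was 0.1, 0.16 and 0.13 in vehicle and -0.07, -0.03 and 0.09 in 4OHT (difference -0.13, exact permutation p = 0.1, adjusted p = 0.167). The groups stayed apart only by the small step from 0.1 in vehicle replicate 1 to 0.09 in 4OHT replicate 3. Dnmt1 and Uhrf1 are both S phase genes by background knowledge, so 14 other S phase genes are given beside them. None of these passed in edgeR with all libraries, where 3 were lower and 0 higher at an unadjusted p under 0.05; DESeq2 called 0, limma-voom with quantile normalization called 2 lower and the fit with a replicate block called 2 lower. Without vehicle replicate 1 or 4OHT replicate 3, 1 was lower. The smallest adjusted p were those of Slbp (log2 fold change -0.16), which binds histone mRNA, Mcm5 (-0.16), a helicase subunit, and Gins2 (-0.16), of whose exon bases 67.3% also lie in Gse1 on the other strand.

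Of the 3 TET genes, Tet2 fell, and Tet1 and Tet3 did not pass the test. Tet1, whose protein binds CpG-rich DNA through a CXXC domain, stood at 757, 674 and 714 CPM in vehicle and 846, 777 and 732 CPM in 4OHT. The groups overlapped, and in same-numbered libraries the 4OHT level was 112%, 115% and 102% of vehicle. The log2 fold change was 0.14 with a 95% interval of 0 to 0.27 (edgeR adjusted p = 0.153). The edgeR adjusted p was 0.0312 with the replicate block (log2 fold change 0.12), a fit that called 28.2% of genes. It was 0.0163 when 4OHT replicate 3 was left out (log2 fold change 0.2). The latter fit keeps a single deep 4OHT library beside the shallow 4OHT replicate 2, which has 407 Tet1 reads.

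Tet2, the other TET gene abundant in stem cells, fell. It stood at 206, 173 and 181 CPM in vehicle and at 158, 130 and 112 CPM in 4OHT. The highest 4OHT library lay below the lowest vehicle library, although the values within each group spread more than those of Dnmt3a or Dnmt3b. The mean went from 187 ± 17.2 to 134 ± 23.3 CPM (SD, n = 3 each), a log2 fold change of -0.47 (SE 0.1, 95% interval -0.67 to -0.26, edgeR adjusted p = 0.0015). In same-numbered libraries the 4OHT level was 76.9%, 74.9% and 62.2% of vehicle.

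The size of the Tet2 fall depended on single 4OHT libraries, and its call depended on the tool. Without 4OHT replicate 1 the log2 fold change was -0.71, and without 4OHT replicate 3 it was -0.27. Each of these fits keeps a single deep 4OHT library beside replicate 2, which has 68 Tet2 reads. Without the shallow replicate 2 the log2 fold change was -0.46 (edgeR adjusted p = 0.0179), a fit that called 21.1% of genes. DESeq2, which called 7.07% of genes, gave -0.48 with an adjusted p of 0.0713, and without replicate 2 an adjusted p of 0.123, where it called 14.9%. The Tet2 to Tet1 ratio was -1.88, -1.96 and -1.98 in vehicle and -2.42, -2.57 and -2.7 in 4OHT on the log2 scale. This was the widest shift of the 5 ratios, without overlap (difference -0.62, exact permutation p = 0.1, adjusted p = 0.167).

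Tet3, the TET gene of the oocyte and of differentiating cells, remained low. It stood at 7.65, 6.97 and 6.81 CPM in vehicle and 8.53, 7.64 and 8.55 CPM in 4OHT. Its 4 reads in 4OHT replicate 2 allow 2.08 to 19.6 CPM (exact 95% Poisson interval, counting error only), so the overlap with vehicle rests on a library that cannot place this gene. The log2 fold change was 0.24 (95% interval 0.02 to 0.46, edgeR adjusted p = 0.112), and 0.24 with an edgeR adjusted p of 0.102 without that library. The Tet3 to Tet1 ratio overlapped between groups (difference 0.13, exact permutation p = 0.3, adjusted p = 0.3).

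**Figure D3:**
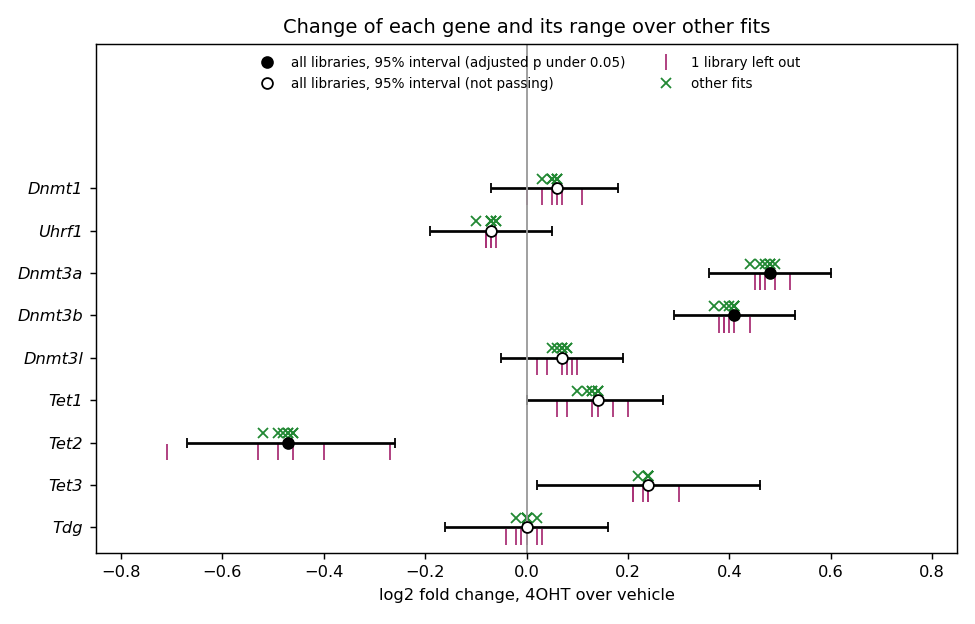
Log2 fold change of 4OHT over vehicle (horizontal axis) for each gene, as a circle with its 95% interval in edgeR (filled where the adjusted p is under 0.05), with bars for fits that leave out 1 library and crosses for the other fits. Dnmt3a and Dnmt3b stay between 0.37 and 0.52 in these fits, while Tet2 ranges from -0.71 to -0.27.

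Tdg, the glycosylase that removes oxidized methylcytosine, did not pass, with 22.1, 20.9 and 23 CPM in vehicle and 22.4, 22.9 and 21.6 CPM in 4OHT. The log2 fold change was 0 with a 95% interval of -0.16 to 0.16 (edgeR adjusted p = 0.992). This value cannot be assigned to Tdg alone. The processed pseudogene Gm9855 is contained in the Tdg transcript at 99.2% identity, and its counts were 1151, 412 and 591 in vehicle and 1201, 12 and 654 in 4OHT. The counts of Tdg itself were 1168, 419 and 603 against 1226, 12 and 661. Gm9855 thus held 98% to 100% of the Tdg count in each of the 6 libraries, although in GENCODE vM21 the 2 genes do not overlap. Tdg-ps, another copy, matches 84.8% of the Tdg transcript at 98.7% identity, and how reads that match several places were counted is not given in the sources used here.

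**Figure D4:**
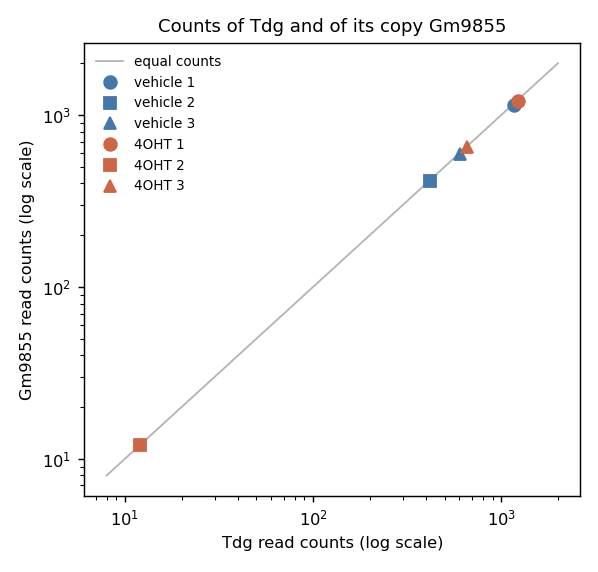
Read counts of the pseudogene Gm9855 (vertical, log scale) against those of Tdg (horizontal, log scale) in the 6 libraries, with a line of equal counts. Each library lies on or just under the line, at 98% to 100% of the Tdg count.

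Levels of different genes were compared per length, as TMM-scaled CPM per kilobase of annotated exon (GENCODE vM21, basic transcripts), so they depend on these transcript models. In vehicle the order was Uhrf1 (120 ± 1.12), Dnmt3l (112 ± 4.88), Dnmt1 (64 ± 1.85), Tet1 (49.8 ± 2.88), Dnmt3b (48.2 ± 0.658), Dnmt3a (20.9 ± 0.568), Tet2 (20.3 ± 1.86), Tdg (6.22 ± 0.298) and Tet3 (0.609 ± 0.038; SD, n = 3 each). Tet1 and Dnmt3b, and likewise Dnmt3a and Tet2, did not differ beyond their spread there. In 4OHT the level of Dnmt3b per kilobase was 64.8 ± 3.16, within the spread of Dnmt1 (66.3 ± 3.45) and above each library of Tet1 (54.6 ± 4.01). Dnmt3a (29.6 ± 1.5) and Tet2 (14.5 ± 2.53), with a ratio of means of 1.03 in vehicle, had one of 2.04 in 4OHT. Dnmt3l (117 ± 3.62) and Uhrf1 (114 ± 3.32) had overlapping ranges in 4OHT. Tet3 was the lowest of the 9 in both groups; the value next above it is that of Tdg, which may include reads of its copies.

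Of 15 tested partners and recruiters of the methyltransferases, 5 rose, 2 fell and 8 did not pass in edgeR (median log2 fold change 0.09), where 22.4% of all tested genes were called. DESeq2 called 3 higher and 0 lower. Dppa3, a maternal factor known to displace UHRF1 from chromatin, rose from 0.302, 0.349 and 0.457 CPM to 3.76, 3.82 and 4.51 CPM, a log2 fold change of 3.51 (edgeR adjusted p = 4.74e-10). The 3.82 CPM of replicate 2 is 2 reads. The pseudogene Dppa3-ps matches 54.1% of its transcript at 98.2% identity. Uhrf2, the paralogue of Uhrf1, rose from 57.6 ± 0.828 to 73.2 ± 4.42 CPM (0.3), and Trim28, a corepressor that keeps imprints methylated, from 2820 ± 31 to 3340 ± 183 CPM (0.25). Usp7 (0.19) and Setdb1 (0.19) also rose, and Ehmt2 (-0.21) and Cdca7l (-0.21) fell; these 4 were named after their values were seen. Without vehicle replicate 1, 2 or 3 the rises numbered 3 each time, and without vehicle replicate 2 or 3 no fall was called.

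The base excision list holds repair genes and other genes linked to demethylation. It gave 2 rises, 1 fall and 11 that did not pass among 14 tested (median log2 fold change -0.02). This share is near the 22.4% of all tested genes. DESeq2 called 0 of the 14. Gadd45b, a stress-induced gene linked to demethylation, had means of 5.86 ± 0.457 and 10.7 ± 2.67 CPM. It rose by a log2 fold change of 0.71 (edgeR adjusted p = 0.000323). DESeq2 gave it an adjusted p of 0.0769 with all libraries and of 0.000657 without 4OHT replicate 2. The uracil glycosylase gene Ung rose from 132 ± 2.83 to 158 ± 14.4 CPM (0.21), and Neil2, another glycosylase gene, fell from 5.88 ± 0.319 to 4.32 ± 0.465 CPM (-0.38). In the shallow 4OHT replicate 2, where 1 read is worth 1.91 CPM, Gadd45b stood at 13.4 CPM and Neil2 at 3.82 CPM. Ung and Neil2 passed in 6 and 7 of 13 other fits; without vehicle replicate 1, 2 or 3 the rises numbered 1, and without vehicle replicate 1 or 3 no fall was called, while without 4OHT replicate 3 there were 2 falls. Of the TET partner genes 3 were tested and none passed in edgeR, with 0 at an unadjusted p under 0.05 and 0 in DESeq2 and in limma-voom; 1 was higher without 4OHT replicate 1. Their log2 fold changes were 0.13 for Cxxc5, -0.06 for Zfp281 and -0.03 for Ogt, which encodes a sugar transferase that binds TET proteins. Members of that list encoding isocitrate dehydrogenases were not analysed here.

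Of 9 tested genes of methyl-CpG binding protein families, called readers here, 1 fell and 8 did not pass (median log2 fold change -0.11). Among all tested genes edgeR called 22.4%. The gene that fell was Mbd2, which links methylated DNA to a repressor complex, at 23.1 ± 0.819 and 18.6 ± 1.47 CPM (-0.25, edgeR adjusted p = 0.0263), and it passed in 7 of 13 other fits. Zbtb33 (-0.18) and Mbd3 (-0.11) did not pass. No reader was higher in edgeR, with 0 at an unadjusted p under 0.05, and DESeq2 and limma-voom called none in either direction. Leaving out vehicle replicate 2 or 3 or 4OHT replicate 3 gave no call, and leaving out vehicle replicate 1 gave 2 falls.

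Enzymes of the methyl donor cycle gave 3 rises, no fall and 10 that did not pass among 13 tested (median log2 fold change 0.1). This share is near the 22.4% of all tested genes that edgeR called. At an unadjusted p under 0.05 edgeR had 1 lower, and DESeq2 and limma-voom called 0 lower; 1 fall was called without 4OHT replicate 3. Bhmt, which remethylates homocysteine with betaine, stood at 0.132, 0.349 and 0.114 CPM in vehicle and rose to 6.61, 1.91 and 5.26 CPM in 4OHT (log2 fold change 5.08, edgeR adjusted p = 5.12e-11), where 1.91 CPM is 1 read. The pseudogene Gm5096 matches 75.1% of the Bhmt transcript at 99.4% identity. Mthfd1, a folate enzyme gene, rose from 379 ± 10.1 to 485 ± 23.8 CPM (0.35).

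Germline genes known to be silenced by promoter methylation gave 4 rises and 1 fall among 12 tested in edgeR (median log2 fold change 0.18). DESeq2 and limma-voom called none. Among all tested genes edgeR called 22.4%, DESeq2 7.07% and limma-voom 14.4%. Brdt, a testis bromodomain gene, stood at 1.57, 1.44 and 1.33 CPM in vehicle and 3.36, 0 and 2.94 CPM in 4OHT (log2 fold change 1.09, edgeR adjusted p = 0.00018). The 0 is that of the shallow library, where 3 reads would be 5.73 CPM. Mael, a piRNA pathway gene, rose from 19.7 ± 0.882 to 22.9 ± 2.75 CPM (0.27), and Ddx4, a germ cell helicase gene, fell from 34.2 ± 2.08 to 29.3 ± 1.37 CPM (-0.25). Tex101 (0.95) and Hormad1 (0.52), named after their values were seen, were the other rises. The rises numbered 1 without vehicle replicate 1, and 2 without vehicle replicate 2, vehicle replicate 3 or 4OHT replicate 2. No fall was called without vehicle replicate 3 or 4OHT replicate 1.

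**Figure D5:**
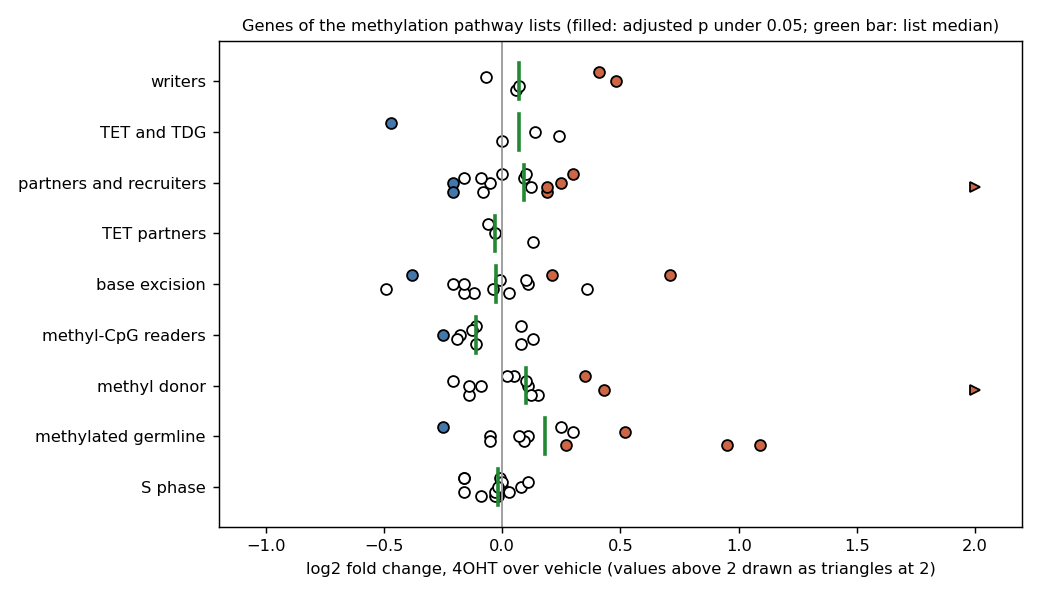
Log2 fold change of 4OHT over vehicle (horizontal axis) for the tested genes of each list, filled where the edgeR adjusted p was under 0.05 (orange higher, blue lower), with a green bar at the list median; 2 values above 2, Dppa3 and Bhmt, are drawn at 2. List medians lie between -0.11 and 0.18.

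Prdm14, a repressor of Dnmt3b in naive stem cells by background knowledge, stood at 50.6, 53.3 and 50.5 CPM in vehicle and fell to 42.1, 30.5 and 42.5 CPM under 4OHT, by -0.3 in log2 (edgeR adjusted p = 0.0033). In DESeq2 its adjusted p was 0.116 with all libraries and 0.00441 without 4OHT replicate 2. Pou5f1, the core pluripotency factor gene, went from 1280 ± 12.9 to 1120 ± 52.7 CPM (-0.21, edgeR adjusted p = 0.014), and without vehicle replicate 2 its edgeR adjusted p was 0.0717.

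Markers of other cell types moved between the groups as well, where edgeR called 11.9% of all tested genes higher in 4OHT. All 10 primitive endoderm markers rose in edgeR (8 in DESeq2 and 7 in limma-voom), with a median log2 fold change of 2.46. Their summed level went from 148 to 163 CPM in vehicle to 252 to 304 CPM in 4OHT. Most of these sums came from the matrix genes Lama1 (means of 94.3 and 135 CPM) and Col4a1 (52.4 and 84.5 CPM). Each other marker had a vehicle mean of at most 2.21 CPM. In the shallow 4OHT replicate 2, Gata4, Sox17 and Sox7 had 0 reads, and Pdgfra, Foxa2 and Dab2 had 1, 2 and 3. Gata6 had 6 reads there and Cubn 12. All 8 tested markers of two-cell-like cells rose in edgeR (4 in DESeq2 and 8 in limma-voom), from sums of 7.81 to 8.17 CPM to 22.6 to 24.8 CPM. In 4OHT replicate 2 each of them had at most 3 reads, and Zscan4f had 0. Of 7 tested primed epiblast markers 3 rose and 2 fell, but 2 of the risers are Dnmt3a and Dnmt3b themselves. The third was Otx2, from 51.5 ± 1.76 to 110 ± 13.5 CPM. The 2 that fell were Lef1 (log2 fold change -1.01) and Cldn6 (-0.9). Pou3f1 (-0.12) and Sox3 (-0.09) did not pass, and Fgf5 and Wnt8a were too low to test. Of the 4 tested fibroblast markers Thy1, a surface protein gene, stood at 15.9 ± 0.52 CPM in vehicle and fell to 6.67 ± 0.874 CPM (SD, n = 3 each), by -1.36 in log2 with an edgeR adjusted p of 3.57e-09. The other 3 did not pass, and the summed level of the list was 24.5 to 26.3 CPM in vehicle and 14.4 to 19.1 CPM in 4OHT. The part of such cells in the changes of Dnmt3a, Dnmt3b and Tet2 was not tested.

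The genes whose levels followed each member most closely were picked by Pearson's r of log2 CPM over the 6 libraries, among 4372 other genes with a mean of at least 50 CPM. For Dnmt3a they were Wwc2 (r = 0.998), Ncoa3 (0.997) and Wdr62 (0.996), and for Dnmt3b they were Sos1 (0.999), Bcat1 (0.998) and B3gnt7 (0.997). For Tet2 they were Ddx46 (0.995), Rbm19 (0.992) and Hadha (0.991), which had log2 fold changes of -0.19, -0.1 and -0.12. Dnmt1 was closest to Atrx (0.99), Tet1 to Riok1 (0.986), Uhrf1 to Tubb6 (0.997) and Dnmt3l to Soat1 (0.987). Among the members, Dnmt3a and Dnmt3b had r = 0.97, Dnmt1 and Tet1 0.95, and Tet2 and Dnmt3b -0.89. Uhrf1, which did not pass the test, had -0.9 with Dnmt3b and -0.89 with Dnmt3a. These values describe 6 points that share the difference between groups, library depth and scaling.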

How the data were processed

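Read counts per gene symbol were deposited by the authors as 1 table of whole numbers for the 6 libraries. STAR and DESeq, and mm9 as build, are listed in the submitters' processing notes. Their versions, the counter, its gene models and whether strand was used: not given in the sources used here. Column totals differ as raw counts do, so no size factor had been applied. The test was that of edgeR 4.0.16 (R 4.3.3): filterByExpr (minimum count 10), TMM factors (0.979 to 1.017), a quasi-likelihood fit with treatment as the only term on all 6 samples, and Benjamini-Hochberg adjustment over 14458 genes. Fold changes use a prior count of 0.125, and ratios of 2 genes an offset of 0.5 counts. Alternatives were DESeq2 1.42.0, upper-quartile factors, limma-voom (limma 3.58.1), other filters, a replicate block and fits without 1 library. DESeq2 without 4OHT replicate 2 was added after seeing its depth. Deviations from the group means of same-numbered samples correlated at 0.54, 0.14 and 0.35 over 4373 genes with at least 50 CPM. These values are not independent, as deviations from a mean of 3 samples are tied. The numbers may pair the samples, but no label says what they mark, and vehicle replicate 2 correlated more with 4OHT replicate 3 (0.39). Replicate 1 was also the deepest library of each group, so pairing and depth cannot be told apart here. No 2 libraries of a group agreed within sampling noise (lowest chi-square per degree of freedom 1.18). On simulated counts for this comparison over 14458 genes, edgeR recovered 79.3% of genes changed 1.5-fold and 93.7% of those changed 2-fold, and 8.6% of its calls were false. Copies were sought with blastn 2.17.0 in GENCODE vM21 transcripts, from 200 aligned bases. The genes named are the 9 members, Nanog, Pou5f1, Prdm14, from each list up to 3 genes by smallest adjusted p, and the 3 genes most alike to a member. Members and lists were chosen with earlier results of these data known. One gene that this rule names is not reported here.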

Additional observations from a re-analysis of the deposited data

How the results depend on the processing

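The counts of all called genes were 1719 higher and 1514 lower in edgeR, 552 and 392 in DESeq2 and 1120 and 968 in limma-voom with quantile normalization; without 1 library they ranged from 1218 to 1950 and from 1150 to 2019. Of 117 refits of the 9 members, 106 kept direction and side of the threshold. In DESeq2, with and without 4OHT replicate 2, Tet2 missed the threshold (-0.48 and -0.47), so 0 members were lower. Without 1 library Tet2 ranged from -0.71 to -0.27 and Tet1 from 0.06 to 0.2, and the replicate block gave Tet1 0.12 with a pass. Tdg, at 0, gave 0 in both DESeq2 fits, -0.02 with the block and -0.04 to 0.03 without 1 library. Dnmt1 ranged from 0 to 0.11 without 1 library, its direction being lost at 0 without 4OHT replicate 1. The cause of these shifts was not tested.

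List counts moved as follows. DESeq2 called 3 partners higher and 0 lower, 0 base excision genes in either direction, 0 readers lower and 0 germline genes in either direction. DESeq2 without 4OHT replicate 2 called 1 base excision gene higher and 0 lower, 0 readers lower and 1 germline gene higher. Limma-voom called 1 base excision gene higher, 0 readers lower, 0 germline genes in either direction and 2 S phase genes lower. Without 1 library the calls, higher and then lower, ranged from 3 to 6 and 0 to 2 for partners, 1 to 2 and 0 to 2 for base excision and 1 to 3 and 0 to 1 for germline genes. TET partners higher ranged from 0 to 1, readers lower from 0 to 2, and donor and S phase genes lower from 0 to 1. The replicate block called 2 base excision and 2 S phase genes lower and changed no other list count by over 1.5 times. Pairing same-numbered samples cannot change the mean difference of a ratio, as each group holds 3 samples. The smallest exact sign-flip p of the 5 ratios was 0.25, the least that 8 sign flips can give. No ratio changed direction without 1 library. Depth limits Tet3, Tdg and the low list genes in 4OHT replicate 2.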
